A study of Mus musculus with 4 samples.

Results

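The lineage-positive (Lin+) cells of mouse bone marrow were compared with c-Kit-positive, lineage-negative progenitors, gene by gene, on 1 microarray per fraction. A gene entered when its probe was well above background, by the scanner software's own flag, on at least 1 of the 2 arrays. This left 12990 of the 20284 genes on the array, 11147 of them measured on both arrays. The study sorted 4 fractions from 8-week-old female C57BL6 mice. The others were long-term stem cells (LT-HSC, CD34-ckit+Sca1+Lineage-) and short-term stem cells (ST-HSC, CD34+ckit+Sca1+Lineage-), whose levels are given beside the 2 compared fractions. No fraction carried a transgene or treatment according to the labels, and how many mice gave each sample is not given in the sources used here. For progenitors, the sample name gives only c-Kit presence and lineage absence, but the sorting text also asks for absence of Sca-1 and mentions lineage-positive cells, so the exact gate is uncertain.

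Lineage antigens are surface proteins that blood cells acquire as they commit to a fate, and a Lin+ sort of marrow gathers maturing granulocytes, erythroid cells, B cells and smaller populations in 1 tube. c-Kit, the receptor for stem cell factor, marks the dividing precursors from which these cells arise and is lost as they mature. The comparison therefore sets a mixture of maturing cells against a mixture of their precursors.

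Levels are log2 signals minus the 75th percentile of the same array, so that 0 is a fairly bright probe. The percentile lay at an intensity of 137 in progenitors and 230 in Lin+ cells, and 41.1% and 45.9% of probes were well above background. The dimmest probe so flagged had a level of -2.87 in progenitors and -3.47 in Lin+ cells, and the brightest one not so flagged had -2.38 and -2.31. Differences are Lin+ minus progenitor on the log2 scale. A probe well above background on 1 array only gave a bound, written as at least N-fold. By the way bounds were set, such a gene could only come out higher on that array or without a difference. This held for 1323 genes flagged in Lin+ cells alone and 520 in progenitors alone. There was 1 array per fraction, so no difference could be tested against the spread between replicates, and all counts below are of genes past 2-fold. The error given for a difference is the scanner software's estimate for the spot measurement alone, called spot error below. It had a median of 0.20 over genes and was not measured from repeated spots. For probes with 10 spots on an array, the SD among those spots had a median of 0.0655 in progenitors and 0.0646 in Lin+ cells. These SDs are for 1 array each and not for a difference.

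At 2-fold, 1883 genes (14.5% of those compared) were higher in Lin+ cells and 3429 (26.4%) were lower. These shares are the background against which the count of each gene list is read. The median gene measured on both arrays differed by -0.42. Of the genes past 2-fold, 35.4% were higher, a share that was 31.9% with median scaling, 39.7% with normexp background correction, 45.6% with quantile normalization, 58.5% with the percentile taken over probes detected on all arrays and 71.1% with scaling to the spike-in controls. With the median gene set at 0, 2772 genes (21.3%) were higher and 1833 (14.1%) lower, and 60.2% of the calls were higher. Large differences lay on the Lin+ side under the reported scaling. At 16-fold or more, 229 genes were higher and 18 lower, while at 4-fold the counts were 803 and 775.

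**Figure D1:**
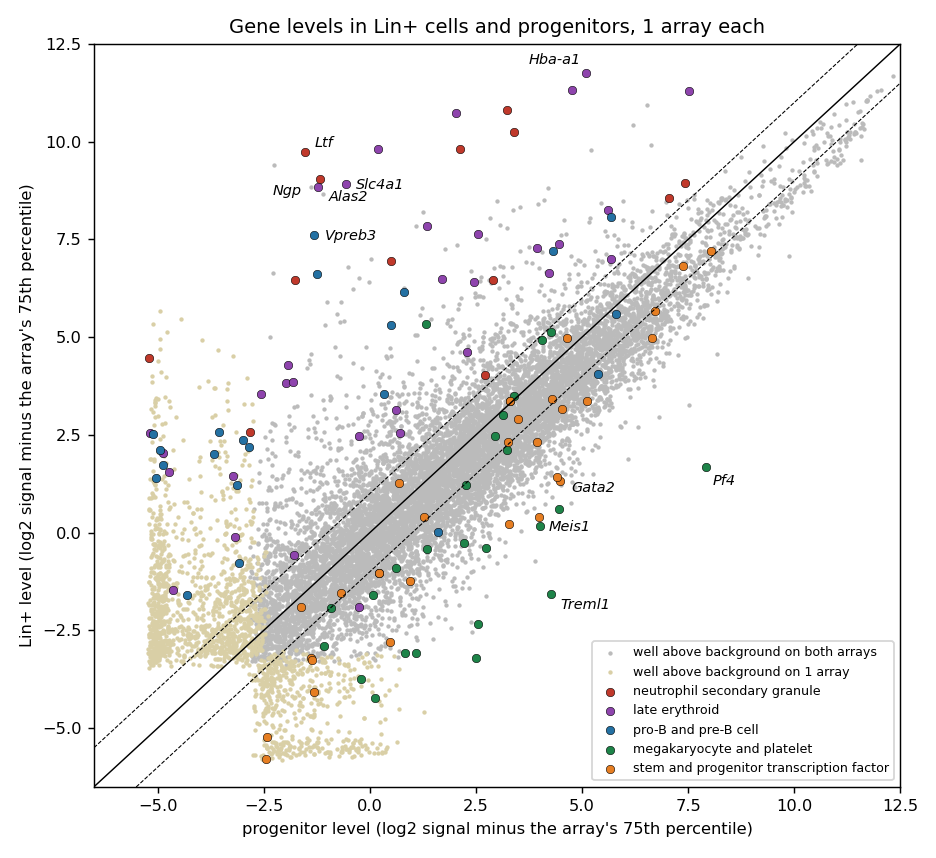
Level of each compared gene in progenitors (x axis) and Lin+ cells (y axis), as log2 signal minus the array's 75th percentile. The solid line marks equal levels, the dashed lines 2-fold, and 5 gene lists are coloured; secondary granule genes and all but 1 of the late erythroid genes lie above the upper dashed line, and most megakaryocyte genes below the lower one.

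The genes of the sorting markers differed between the fractions for some markers and not for others. Kit had levels of 5.63, 4.42 and 1.67 in LT-HSC, progenitors and Lin+ cells, with ST-HSC between the first pair, and was lower in Lin+ cells by -2.75 ± 0.20. Cd34, a sialomucin of early progenitors, was at 7.51 in progenitors and 3.26 in Lin+ cells (-4.25 ± 0.20). Lin+ was the lowest of the 4 fractions for both genes. Gata2, a transcription factor of stem cells, early progenitors and mast cells, had 5.56, 3.83, 4.49 and 1.32, a difference of -3.17 ± 0.20.

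Among the other sorting and lineage genes, Ms4a1, a surface protein of B cells, was not well above background in progenitors. It reached 3.99 in Lin+ cells, at least 116-fold higher. Ptprc (CD45) was at -1.15 in progenitors and 2.36 in Lin+ cells (3.51 ± 0.22). Ly6a, which encodes Sca-1, was also higher in Lin+ cells (2.28 against 4.51), and its level in progenitors was the lowest of the 4 fractions. The probes of Itgam (CD11b), Cd3e and Cd4 were at similar levels in progenitors and Lin+ cells. Itgam lay between 4.83 and 5.17, Cd4 between 2.39 and 2.91, and Cd3e went from 2.02 in ST-HSC, much as in LT-HSC, to 3.19 in Lin+ cells, with no 2-fold difference between the compared fractions for any of the 3. Cd8a was at -1.18 and -1.65 with probes that disagreed in sign, and Ly6g had no named probe.

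Of the 4 genes given as marks of the comparison, Ltf and Alas2 were far higher in Lin+ cells and Pf4 and Gata2 lower. Ltf (lactoferrin) had -2.58, -2.59, -1.52 and 9.74 in LT-HSC, ST-HSC, progenitors and Lin+ cells, the second largest measured difference of all (11.26 ± 0.24, or 2445-fold). Alas2, the erythroid enzyme that starts heme synthesis, was not well above background in either stem cell fraction and was at -1.21 in progenitors and 8.84 in Lin+ cells (10.05 ± 0.23). Pf4, the platelet chemokine, had 6.30, 2.50, 7.92 and 1.68, and its difference of -6.24 ± 0.20 was the lowest measured. In sorted bulk samples, fewer cells of a type and less RNA per cell cannot be told apart, which holds for all of these levels.

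Most markers of stromal and endothelial cells, which neither sort was meant to hold, were low. The vascular cadherin Cdh5 and the collagen gene Col1a1 were not well above background in progenitors and were at -2.56 and -1.18 in Lin+ cells. Col1a2 was at 0.39 in progenitors and -2.70 in Lin+ cells, Cxcl12 at -1.83 and -2.13, and Pecam1 at -1.16 and -0.98. Lepr was bright on all 4 arrays, from 4.33 to 5.43. The part of such cells in any difference was not tested.

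Neutrophil granule genes separated by the stage at which their granule is made. Primary (azurophilic) granules form in promyelocytes, secondary granules in myelocytes, and tertiary granules and surface receptors of mature neutrophils later still. Of 11 primary granule genes compared, 6 were lower by 2-fold or more in Lin+ cells and 1 was higher, with a median of -1.02. All 13 secondary granule genes were higher, with a median of 6.85. Of 32 genes of tertiary granules and mature neutrophils, 29 were higher and none lower, with a median of 4.39. The primary granule count depended on the scaling: 2 were lower and 2 higher with the median gene at 0, none lower and 3 higher with quantile normalization, and 1 lower and 3 higher with spike-in scaling. Its median stayed below 0 under each scaling tried, from -1.08 to -0.41.

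Mpo (myeloperoxidase) had levels of 6.70, 10.12, 11.58 and 10.15 in LT-HSC, ST-HSC, progenitors and Lin+ cells. The serine protease genes Elane (1.16, 4.12, 8.73 and 7.51) and Ctsg (2.45, 8.20, 10.40 and 8.75) were likewise brightest in progenitors and still bright in Lin+ cells. Their differences were -1.43, -1.21 and -1.65, each ± 0.20, and Prtn3 differed by -1.02. Each of these 4 genes was higher in ST-HSC than in LT-HSC and higher again in progenitors, and in Lin+ cells lay between ST-HSC and progenitors. Fcnb (ficolin B), a lectin placed in the primary granule list here, went the other way, from -0.17 in progenitors to 4.21 in Lin+ cells (4.38 ± 0.21). Srgn, Cd63 and Serpinb1a, whose products are packed into granules or protect the cell from its own proteases, differed by -0.20, 0.40 and 0.33.

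Ngp (neutrophilic granule protein) was not well above background in LT-HSC or ST-HSC and had -1.18 in progenitors and 9.04 in Lin+ cells (10.22 ± 0.23). Camp, the cathelicidin antimicrobial peptide, was at -0.96, -0.84, 3.24 and 10.80, and Lcn2 (lipocalin 2, which binds bacterial siderophores) at -1.58, -1.12, 2.12 and 9.81. Progenitors were already well above both stem cell fractions for Camp and Lcn2. Mmp8, neutrophil collagenase, differed by 8.23 ± 0.26, Chil3 by 6.85 ± 0.20 and Lyz2 (lysozyme) by 6.46 ± 0.21. Cd177 was not well above background in any other fraction and was at least 162-fold higher in Lin+ cells.

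Among later genes, Retnlg, a resistin-like protein of neutrophils, was at -1.39 in progenitors and 8.83 in Lin+ cells (10.23 ± 0.25). The formyl peptide receptors Fpr1 and Fpr2, which sense bacterial peptides, were not well above background outside Lin+ cells and were at least 185-fold and at least 255-fold higher there. Mmp9 (gelatinase B) was at least 126-fold higher. Csf3r, the receptor for G-CSF, differed by only 0.04 ± 0.20 and lay between 6.87 and 7.42 in all 4 fractions.

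The 250 bases before the start of the 3 secondary granule genes with the largest differences are shown because each holds the string TTGCNNAA (capitals, on either strand), a core bound by C/EBP factors, which act in granulocyte maturation. They are RefSeq sequences of GRCm38.p6, all on the + strand, at chr9:111019042-111019291 for Ltf, chr9:110419558-110419807 for Ngp and chr9:7558179-7558428 for Mmp8.
Ltf: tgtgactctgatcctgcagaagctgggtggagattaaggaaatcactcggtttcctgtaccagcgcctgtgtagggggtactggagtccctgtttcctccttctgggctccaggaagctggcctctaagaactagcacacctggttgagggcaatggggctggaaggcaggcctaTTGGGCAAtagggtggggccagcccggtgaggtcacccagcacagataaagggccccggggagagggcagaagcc
Ngp: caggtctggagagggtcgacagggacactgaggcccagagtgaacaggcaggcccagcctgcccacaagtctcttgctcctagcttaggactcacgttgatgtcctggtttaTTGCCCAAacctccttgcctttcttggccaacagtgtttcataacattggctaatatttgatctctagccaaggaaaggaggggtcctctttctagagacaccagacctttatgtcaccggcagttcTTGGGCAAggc
Mmp8: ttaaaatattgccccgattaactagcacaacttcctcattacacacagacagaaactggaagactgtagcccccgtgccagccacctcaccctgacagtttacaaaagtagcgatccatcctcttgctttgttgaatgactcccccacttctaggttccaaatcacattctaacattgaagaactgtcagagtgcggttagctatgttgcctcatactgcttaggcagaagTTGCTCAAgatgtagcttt
The matches began at -75 in Ltf, -138 and -11 in Ngp and -19 in Mmp8, counted from the start site. The string was in 4 of 12 secondary granule promoters (33.3%, the other being Lcn2) and 7 of 28 of the mature neutrophil list (25%). It was in 1 of 10 of the primary granule list and 9.55% of all 27025 promoters. Outside the neutrophil lists, it was in 3 of 15 immature and mature B cell promoters (20%). The remaining erythroid, B cell and megakaryocyte lists had it in 8% to 11.1%. Cebpe, the C/EBP factor needed for secondary granules, was at -0.59, 1.23, 5.75 and 7.61 over the 4 fractions (1.86 ± 0.20), Cebpb differed by 1.79, and Cebpa, which acts earlier, by -1.45. A match is a description of letters and not evidence of binding.

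The NADPH oxidase, which makes superoxide in phagocytes, was higher in 7 of its 8 genes and lower in none. Cybb, its catalytic subunit, was not well above background in progenitors and was at least 42.6-fold higher in Lin+ cells. The cytosolic subunits Ncf1 and Ncf4 and the proton channel Hvcn1 differed by 2.05, 1.66 and 1.76. Of 17 pattern recognition genes compared, 9 were higher and 1 lower. Tlr13, a sensor of bacterial ribosomal RNA, stood out within that list at 5.21 ± 0.21, followed by Clec4n at 2.33, Tlr6 at 1.99 and Cd14 at 1.94, whereas the adaptor Myd88 differed by 0.40. Nlrp3 was lower by -1.37, with probes that disagreed in sign. Of 12 Fc receptor genes, which bind antibody, 10 were higher and none lower, with a median of 2.02, and 7 of the 12 were measured on both arrays.

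**Figure D2:**
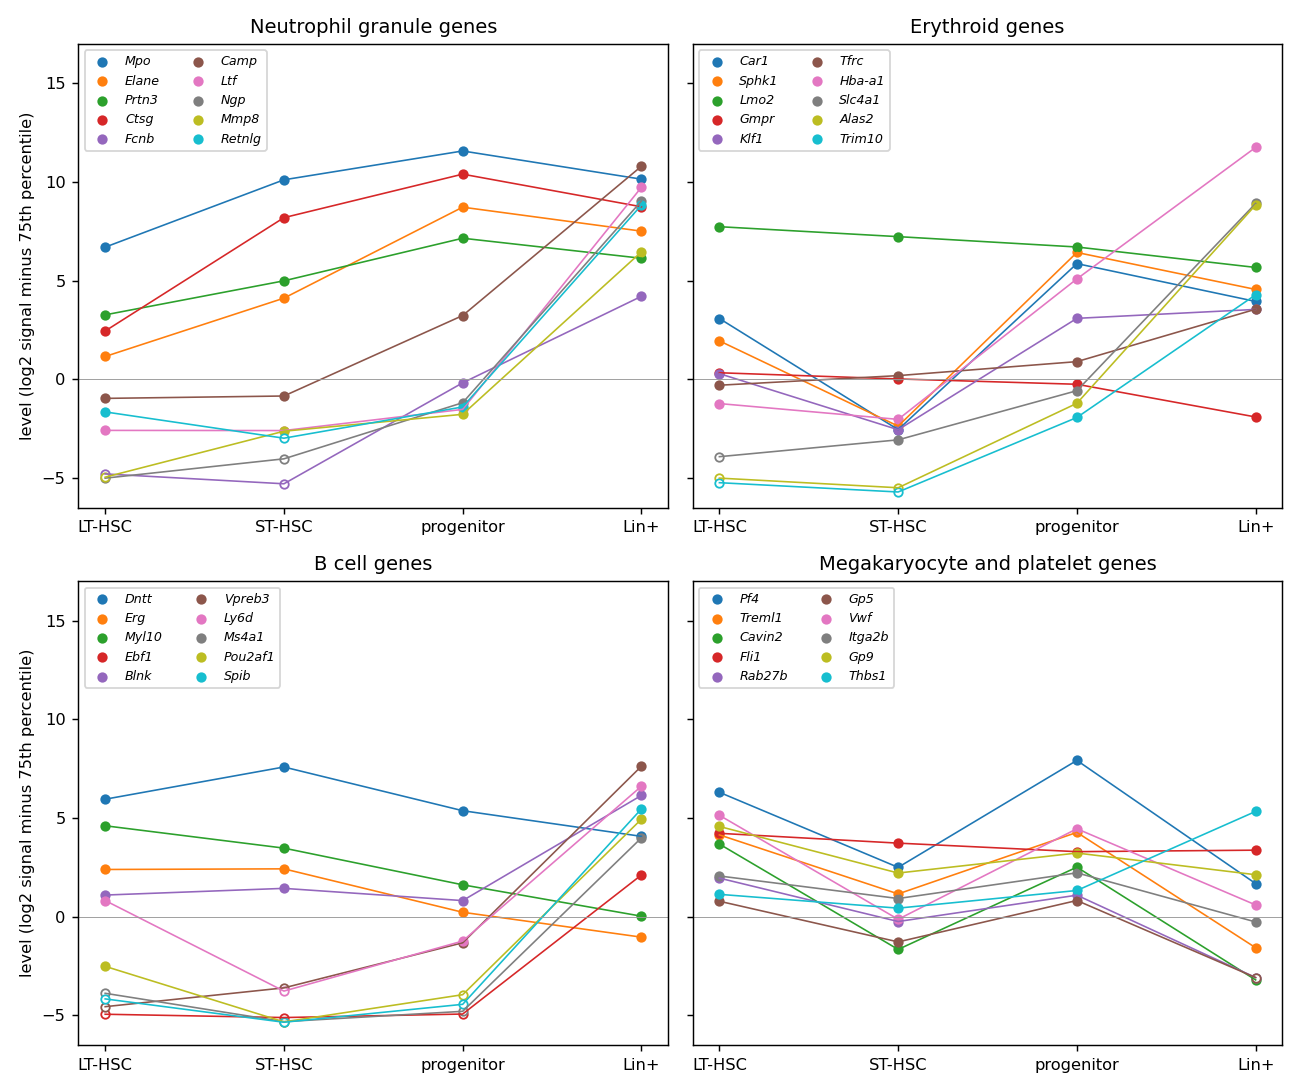
Levels of 40 genes in the 4 fractions (x axis) as log2 signal minus the array's 75th percentile (y axis), 1 array each; filled points are well above background and open points are not, and lines join the points of 1 gene. Ltf, Ngp, Alas2, Slc4a1 and Vpreb3 are below 0 outside Lin+ cells, Mpo, Elane and Car1 peak in progenitors, and Pf4 and Treml1 drop in Lin+ cells.

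Erythroid genes also separated by stage. Of 25 early erythroid genes, 7 were at least 2-fold higher in Lin+ cells and 5 lower, with a median of 0.43. Of 32 late erythroid genes, 31 were higher and 1 lower, with a median of 4.37. The erythroid regulators Klf1, Gata1, Tal1 and Zfpm1 differed by 0.45, -0.40, 0.36 and 0.43, all within 2-fold. Epor, the erythropoietin receptor, was at 4.84 in progenitors and 5.08 in Lin+ cells (0.24 ± 0.20), a difference close to its spot error.

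Car1, carbonic anhydrase 1, had 3.09, -2.54, 5.87 and 3.95 in LT-HSC, ST-HSC, progenitors and Lin+ cells (-1.92 ± 0.20). Sphk1, a sphingosine kinase, followed the same order with 1.95, -2.37, 6.43 and 4.56 (-1.87 ± 0.20). Both were brightest in progenitors and lowest in ST-HSC. The transcription factor genes Lmo2, Ldb1 and Gfi1b were lower in Lin+ cells by -1.04, -1.03 and -1.02. These 3 lie just past 2-fold and no longer reached it with the median gene at 0. In the other direction, Tfrc, the transferrin receptor that takes up iron, was at 0.90 in progenitors and 3.56 in Lin+ cells (2.66 ± 0.21), and Rhd and Cldn13 differed by 2.17 and 1.89.

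Slc4a1, the band 3 anion exchanger, was at -0.57 in progenitors and 8.92 in Lin+ cells (9.49 ± 0.22), and Hba-a1 (alpha globin) at 5.09 and 11.76 (6.66 ± 0.20). The beta globin genes Hbb-bs, Hbb-b2 and Hbb-bt differed by 9.62, 8.71 and 6.56, but their near-identical sequences and those of the alpha globin copies mean that each probe may read more than 1 of them. Gmpr, a guanosine monophosphate reductase, was the exception among late genes, at -0.24 in progenitors and -1.90 in Lin+ cells (-1.66 ± 0.23).

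Heme synthesis and mitochondrial iron import had 11 of 16 genes higher and 1 lower, with a median of 1.19. The largest differences were those of Alas2 at 10.05, the iron importer Slc25a37 at 4.41 ± 0.20 and ferrochelatase (Fech) at 3.41. Uros, Ppox and Alad differed by 1.80, 1.74 and 1.24. Alas1, the form of the first enzyme used outside the red lineage, was the gene that was lower, at 7.65 in progenitors and 6.64 in Lin+ cells (-1.01 ± 0.20). It lay just past 2-fold and no longer reached it with the median gene at 0, quantile normalization, spike-in scaling or normexp. Of 15 ubiquitin-system genes linked to red cell maturation, 10 were higher and none lower. Ube2o, which marks proteins for removal in reticulocytes, was at 3.75 and 7.31 (3.56 ± 0.20), Ube2l6 differed by 3.97 and Trim58 was at least 6.72-fold higher, while the conjugating enzyme gene Ube2d3 differed by 0.05.

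Autophagy and mitophagy genes, which clear organelles, were higher in 6 of 31 and lower in 1, beside 14.5% and 26.4% of all genes. Most of the list, 24 genes, was within 2-fold. Bnip3l (Nix), the receptor for removal of mitochondria in reticulocytes, differed by 2.42 ± 0.20, Gabarapl2 by 1.90 and Wipi1 by 1.98. Gabarapl1 was lower by -1.84 ± 0.20, from 7.33 to 5.48.

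Promoters of 2 late erythroid genes are shown for the string AGATAA or its reverse TTATCT, which GATA factors bind. They are from the same source, on the + strand, at chrX:150547167-150547416 for Alas2 and chr17:36869324-36869573 for Trim10.
Alas2: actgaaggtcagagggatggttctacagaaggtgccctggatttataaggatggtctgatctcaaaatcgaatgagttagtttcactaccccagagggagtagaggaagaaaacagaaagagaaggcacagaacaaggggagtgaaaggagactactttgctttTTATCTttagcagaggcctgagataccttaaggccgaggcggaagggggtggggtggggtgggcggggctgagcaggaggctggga
Trim10: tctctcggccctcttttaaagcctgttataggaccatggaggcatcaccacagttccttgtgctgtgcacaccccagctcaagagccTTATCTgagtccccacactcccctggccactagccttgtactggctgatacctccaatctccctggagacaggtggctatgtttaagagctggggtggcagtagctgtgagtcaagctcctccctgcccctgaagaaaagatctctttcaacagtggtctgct
The capitals mark the matches, which began at -86 in Alas2 and -163 in Trim10. Trim10, a ring finger protein of maturing red cells, was at -1.93 in progenitors and 4.29 in Lin+ cells (6.22 ± 0.25). The string was in 6 of 25 late erythroid promoters (24%), 4 of 18 early erythroid promoters (22.2%), 3 of 22 megakaryocyte promoters (13.6%) and 10.3% of all. It was also in 5 of 12 secondary granule promoters (41.7%), that of Ltf among them, so its share was not highest in the erythroid lists.

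Most B cell genes were higher in Lin+ cells, many of them from below background in progenitors. Of 22 genes of pro-B and pre-B cells, 18 were at least 2-fold higher and 3 lower, with a median of 4.43. Of 21 genes of immature and mature B cells, 20 were higher and none lower, with a median of 3.44. Many are bounds: only 11 and 9 members of the 2 lists were measured on both arrays. With genes measured on both arrays alone, 7 pro-B and pre-B genes were higher.

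Vpreb3, a chaperone-like partner of the pre-B cell receptor, was not well above background in LT-HSC or ST-HSC and had -1.32 in progenitors and 7.62 in Lin+ cells (8.95 ± 0.24). Ly6d was at -1.24 and 6.61, and Blnk, an adaptor of B cell receptor signalling, at 0.81 and 6.15 (5.33 ± 0.21). Ebf1, the transcription factor that sets B cell identity, was not well above background in any of the 3 other fractions and was at least 31.6-fold higher in Lin+ cells. Igll1 and Vpreb2, parts of the surrogate light chain, were at least 43.2-fold and at least 33.4-fold higher. In the mature list, Spib, Pou2af1 and Fcmr were at least 321-fold, 224-fold and 190-fold higher.

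The 3 early lymphoid genes that were lower were present in all 4 fractions. Of the pro-B and pre-B list, 1 gene was lower with the median gene at 0, 2 with quantile normalization and 0 with spike-in scaling. Dntt, the polymerase that adds bases at rearranging antigen receptor genes, had 5.95, 7.58, 5.37 and 4.07 (-1.30 ± 0.20). Erg had 2.39, 2.42, 0.22 and -1.04, and Myl10 had 4.61, 3.47, 1.61 and 0.02. Each was lowest in Lin+ cells. The string CCCNNGGG, a core bound by EBF factors, was in 5 of 18 pro-B and pre-B promoters (27.8%), 9 of 25 late erythroid promoters (36%) and 11.7% of all. Of those 5 pro-B and pre-B genes, Foxo1 and Igll1 were higher in Lin+ cells, Erg and Myl10 lower and Cplx2 within 2-fold (-0.19).

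Plasma cell genes were higher in 6 of 12 and lower in 1. Irf4 and Mzb1 were at least 166-fold and at least 104-fold higher, Jchain differed by 3.35 ± 0.21, and Xbp1 by -0.39 with bright levels in all fractions. Creld2 was lower by -1.19. Of 24 T cell genes, 16 were higher and 3 lower, and 15 of the 24 were measured on both arrays. Cd2, an adhesion receptor, was at least 295-fold higher, Cd3d and Cd3g, subunits of the T cell receptor complex, were at least 64.4-fold and at least 18.2-fold higher, and Thy1 differed by 3.52. Cd3e, of the same complex, differed by only 0.25 and Cd4 by 0.13, and Cd8a, Gata3 and Ctla4 were also within 2-fold. Cd27 had 2.19, 2.65, 1.09 and -1.68 and was the lowest difference of that list (-2.77 ± 0.24); Lat and Ubash3a were also lower, by -1.05 and -1.24. Of 16 genes of NK cells and cytotoxic granules, 11 were higher and 2 lower, but only 6 of the 16 were measured on both arrays. Gzma was at least 114-fold higher, Ccl5 differed by 3.59 ± 0.20 and Klrb1c was at least 7.74-fold higher, but Nkg7 and Gzmb were lower by -1.05 and -1.51. Prf1 (perforin) differed by -0.43. With the median gene at 0, Cd27 and Gzmb were still at least 2-fold lower, but Creld2, Lat, Ubash3a and Nkg7 were not.

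Monocyte genes were split between higher and level. Of 18, 8 were at least 2-fold higher and none lower, with a median of 0.28. S100a4 and Ccr2 were higher, by 3.92 and 2.06. Csf1r, Irf8, F13a1 and Ly86, each higher in progenitors than in either stem cell fraction, differed by -0.27, -0.46, 0.11 and -0.11. Csf1r is the receptor for the monocyte growth factor, and its probes disagreed in sign.

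Marrow macrophage genes were higher in 10 of 16 and lower in none, and 9 of the 16 were measured on both arrays. The complement genes C1qa, C1qb and C1qc were not well above background in progenitors and at least 5.89-fold, 7.93-fold and 12.9-fold higher in Lin+ cells. Adgre1, a surface receptor of macrophages, differed by 3.22 and Vcam1 by 2.08. Of 16 dendritic cell genes, 10 were higher and 1 lower. Cd209a was at least 19.9-fold higher and Siglech differed by 0.07. Flt3, a receptor shared with early progenitors, had 4.35, 5.81, 3.93 and 1.68 (-2.24 ± 0.20).

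Eosinophil genes were higher in 10 of 11, with a median of 4.39. Epx (eosinophil peroxidase) was not well above background in LT-HSC and had -3.08, 3.13 and 6.55 in ST-HSC, progenitors and Lin+ cells (3.43 ± 0.20). Prg2, the major basic protein, had -0.98, 6.63 and 9.91 in the same fractions. Both were already far higher in progenitors than in ST-HSC. Ear1, Ear2, Ear6 and Ear10, ribonucleases of eosinophils, differed by 4.88, 4.57, 4.77 and 4.81, but they are close paralogs whose probes may read each other. Alox15 was at least 36.4-fold higher, while Siglecf differed by 0.47.

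Basophil and mast cell genes were higher in 6 of 11 and lower in 1, with a median of 1.31. At 4-fold, 2 were higher. Prss34 and Mcpt8, basophil proteases, had 3.36 and 3.31 in progenitors and 5.75 and 4.61 in Lin+ cells. Fcer1a, the IgE receptor chain, differed by 1.61 ± 0.21. Cpa3, a mast cell protease shared with basophils and progenitors, was at 2.79 and 1.96, and Hdc at 5.99 and 6.62, both within 2-fold.

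**Figure D3:**
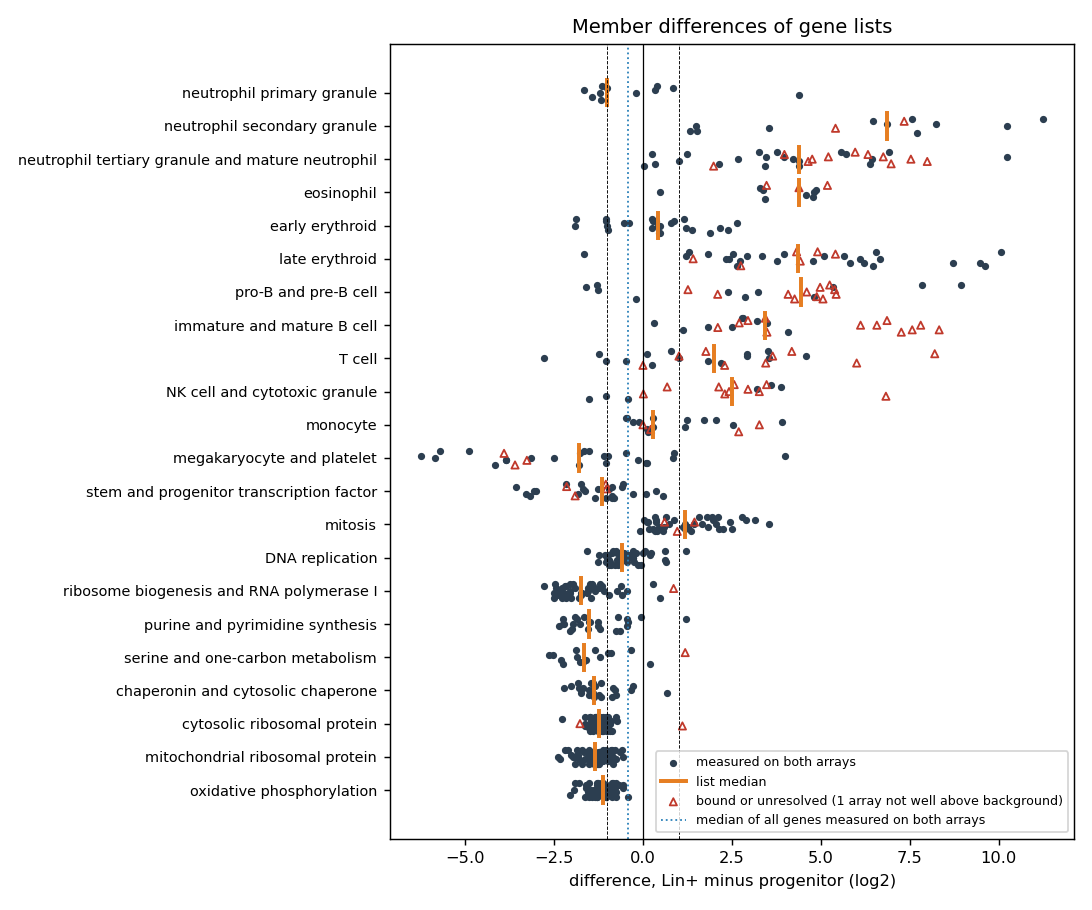
Difference of each member of 22 gene lists, Lin+ minus progenitor in log2 (x axis), with filled points measured on both arrays, open triangles for bounds or genes that could not be resolved, and an orange bar at the list median. Dashed lines mark 2-fold and the dotted line the median gene at -0.42; secondary granule, late erythroid and B cell lists lie far to the right, and the ribosome, nucleotide and mitochondrial lists to the left.

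Megakaryocyte and platelet genes ran against the other lineages. Of 26 compared, 18 were lower by 2-fold or more in Lin+ cells and 1 was higher, with a median of -1.79. With the median gene at 0, 16 were lower and 3 higher. Treml1, a platelet receptor, had 4.14, 1.15, 4.27 and -1.57 in LT-HSC, ST-HSC, progenitors and Lin+ cells (-5.84 ± 0.22). Cavin2 had 3.68, -1.66, 2.51 and -3.21 (-5.71 ± 0.32). Like Pf4, both were high in LT-HSC, lower in ST-HSC, high again in progenitors and lowest in Lin+ cells.

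Vwf (von Willebrand factor) had 5.14, -0.13, 4.45 and 0.59, and Itga2b, the alpha chain of the fibrinogen receptor, had 2.06, 0.92, 2.22 and -0.27. Of the von Willebrand factor receptor, Gp9 differed by -1.10 and Gp5 was at least 15.0-fold lower, and Rab27b, which acts in granule release, differed by -4.17. Fli1, Itgb3 and Ptgs1 were within 2-fold (0.08, -0.13 and 0.10). Thbs1 (thrombospondin 1), also made by monocytes, was the member that was higher, at 1.13, 0.43, 1.33 and 5.33 (4.01 ± 0.20).

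Transcription factors of stem cells and progenitors were lower in 17 of 28 and higher in none, with a median of -1.15; 12 were lower with the median gene at 0 and 7 at 4-fold. Meis1, a cofactor of Hox proteins, had 6.53, 5.63, 3.99 and 0.41 (-3.58 ± 0.21), and Hoxa7 had 4.01, 3.98, 3.29 and 0.23. Mycn had 3.62, 1.56, 0.48 and -2.80. These 3 went down in the order LT-HSC, ST-HSC, progenitor and Lin+, with the first 2 fractions within the spot error for Hoxa7. Myc was level over the earlier fractions (4.20, 4.41 and 4.42) and at 1.41 in Lin+ cells (-3.01 ± 0.20). Hlf had 5.09, 4.14, 0.94 and -1.23. Runx1, Lyl1, Fli1 and Tal1 differed by -0.86, -0.57, 0.08 and 0.36, and Trib2 by 0.56.

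Of 19 long-term stem cell genes, 12 were lower and 3 higher. Esam, Tie1 and Procr were not well above background in Lin+ cells and were at least 14.2-fold, 9.52-fold and 7.17-fold lower than in progenitors. Adgrg1 and Angpt1 differed by -3.17 and -3.16. Pdzk1ip1 had 7.18, 4.17, 4.03 and 6.33, and Tgm2 had 5.43, 1.13, 1.87 and 3.65, so that, as for Ly6a, Lin+ cells lay nearer to LT-HSC than progenitors did. Surface antigens of progenitors were mixed, with 8 of 18 lower and 5 higher. Their median of -0.52 turned to 0.08 with spike-in scaling.

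Lineage transcription factors leaned higher in Lin+ cells in both branches, and the branches were not tested against each other. Of 27 lymphoid factors, 16 were higher and none lower, with a median of 1.82. Only 16 of the 27 were measured on both arrays. Lef1 was at least 19.2-fold higher, and Ets1 and Id2 differed by 3.98 and 3.76, while Tcf3, Ikzf1 and Notch1 were within 2-fold (-0.22, 0.46 and 0.27). Of 29 myeloid and erythroid factors, 8 were higher and 3 lower, and 13 and 1 with the median gene at 0. Mxd1, an antagonist of Myc, had 3.42, 3.14, 3.35 and 6.79 (3.43 ± 0.20), Klf5 differed by 3.48 and Klf3 by 2.12. Cebpa, Egr1 and Gfi1b were lower by -1.45, -1.23 and -1.02.

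Among receptors for cytokines, 12 of 36 were higher and 6 lower. Il1r2, a decoy receptor of neutrophils, was at -0.81 in progenitors and 4.75 in Lin+ cells (5.56 ± 0.22), and Il7r, needed by early lymphoid cells, was at least 29.6-fold higher. Kit and Flt3, receptors of early growth factors, were lower, as were Il1r1, Ifngr1 and Il3ra (-1.49, -1.13 and -1.09). Chemokine receptor genes were higher in 16 of 19 and lower in none, with a median of 2.83, and 10 of the 19 were measured on both arrays. Ccr7, which guides cells to lymph nodes, was at -1.77, -1.24, -2.29 and 6.65 (8.94 ± 0.30). Cxcr5 was at least 95.4-fold higher and Cxcr2, through which neutrophils leave the marrow, differed by 3.77 ± 0.26.

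Cell division genes did not move as 1 block. Of 43 mitosis genes, 24 were at least 2-fold higher in Lin+ cells and none lower, with a median of 1.19, and 10 were higher at 4-fold. Of 46 DNA replication genes, 1 was higher and 6 lower, with a median of -0.59 that was 0.02 with spike-in scaling. Both replication counts were below the shares of all genes (14.5% higher and 26.4% lower), and that median was -0.17 relative to the median gene. With the median gene at 0, 30 mitosis genes were higher, and 4 replication genes were higher and 1 lower. Mki67, which encodes the Ki-67 proliferation antigen, had 1.51, 4.89, 3.99 and 6.78 in LT-HSC, ST-HSC, progenitors and Lin+ cells (2.79 ± 0.20). Cenpe, a kinetochore motor, had 0.11, 3.42, 0.94 and 4.09, and Nusap1 had 1.46, 3.86, 2.11 and 4.62. For these 3, ST-HSC were above progenitors and Lin+ cells were highest.

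The phosphatase gene Cdc25b differed by 3.53 ± 0.20 and the condensin gene Smc4 by 2.44. The core mitotic kinase and its cyclin, Cdk1 and Ccnb1, differed by only 0.41 and 0.34, and Cdc20 and Plk1 by 0.13 and 0.57. In the replication list, the helicase subunits Mcm3 and Mcm6 differed by -1.06 and -1.04, the polymerase subunit Pold2 by -1.56, Pcna by -0.27 and Cdc6 by 0.21. Rrm2, the regulatory subunit of ribonucleotide reductase, was the 1 that was higher (5.67 against 6.87).

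Inhibitors of the cell cycle and genes of exit from it were higher in 13 of 28 and lower in 2. Foxo1 and Ypel3 differed by 3.22 and 3.12, the retinoblastoma gene Rb1 by 2.56, Btg1 by 2.04 and the inhibitor Cdkn2d by 2.04, each ± 0.20 or 0.21. Cdkn1a (p21) differed by -0.73 and Cdkn1c, bright in LT-HSC at 2.80, by 0.41. The D-type cyclins Ccnd1 and Ccnd2, which start the cycle, were lower by -1.38 and -1.62.

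Ribosome biogenesis and RNA polymerase I, the machinery that makes ribosomes, had 41 of 49 genes lower and none higher, with a median of -1.76. With the median gene at 0, 35 were lower, with spike-in scaling 27, and at 4-fold 21. Grwd1 was at 4.26 in progenitors and 1.48 in Lin+ cells (-2.78 ± 0.20). The RNA polymerase I subunit Polr1b had 2.07, 2.07, 2.96 and 0.47, and the methyltransferase Nop2 had 4.88, 5.13, 6.09 and 3.68. Progenitors were the highest and Lin+ cells the lowest of the 4 fractions for these 3 genes. Ubtf, the factor that opens ribosomal DNA, was not lower (0.28), with probes that disagreed in sign, and nucleolin (Ncl) differed by -0.61.

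Purine and pyrimidine synthesis was lower in 17 of 25 and higher in 1, with a median of -1.52. Ppat, which commits to purine synthesis, had 2.22, 2.54, 2.83 and 0.48 (-2.35 ± 0.21), and Dhodh, Impdh2 and Umps differed by -2.25, -2.06 and -1.97. Serine and one-carbon metabolism, which supplies those pathways, was lower in 11 of 16 and higher in 1, with a median of -1.65. Phgdh, the first enzyme of serine synthesis, had 5.44, 6.23, 6.70 and 4.17 (-2.53 ± 0.20), and Gcsh, Mthfd1 and Shmt2 differed by -2.65, -2.30 and -1.88. Mthfd2 differed by 0.19.

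Cytosolic ribosomal protein genes were lower in 76 of 85 and higher in 1, with small and similar differences around a median of -1.24. The count depended on the scaling. It was 15 beside 1833 of all 12990 genes with the median gene at 0, 5 beside 1357 with spike-in scaling, and 2 beside 2569 with quantile normalization. Under the last 2 scalings the share of lower genes in the list was thus below that of all genes, and the quantile median of -0.26 was near the -0.20 of all genes. Rpl11 and Rpl12 were at 11.15 and 11.08 in progenitors and 9.54 and 9.46 in Lin+ cells, Rps18 differed by -1.52 and Rps27 by -0.87. The variant Rps27l, regulated by p53, differed by -2.27. Rpl3l, a paralog of muscle, was near background (at least 2.16-fold higher).

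Further parts of protein synthesis and quality control were lower to an extent that depended on the scaling. Initiation and elongation factors were lower in 19 of 34 and higher in 1 (Eif4a1 -1.93, Eif5 1.09), aminoacyl-tRNA synthetases in 13 of 22 (Farsa -1.96), chaperones in 19 of 26 (Hspe1 -2.21, Hspd1 -2.02) and the proteasome in 13 of 31 (Psmd7 -1.84), with no gene higher in the last 3 lists. With the median gene at 0, these 4 lists had 6, 5, 11 and 4 genes lower, beside 14.1% of all genes. With quantile normalization they had 5, 6, 11 and 2, beside 2569 of all 12990 genes. With spike-in scaling they had 3, 3, 7 and 2, beside 1357. The proteasome share was below that of all genes under each of these scalings. That of initiation and elongation factors was below it with quantile normalization and spike-in scaling. Mitochondrial ribosomal proteins were lower in 61 of 77 and oxidative phosphorylation in 53 of 77, with none higher. Those counts were 28 and 15 with the median gene at 0, beside the same 14.1%, and 51 and 40 with the trend over gene span removed. They were 29 and 7 with quantile normalization and 17 and 7 with spike-in scaling. Under these 2 scalings the share of lower oxidative phosphorylation genes was below that of all genes. Mrpl12 differed by -2.38 and the ATP synthase gene Atp5g1 by -2.05.

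Carbon metabolism was less uniform. The tricarboxylic acid cycle was lower in 14 of 24 and higher in 1. Idh2 had 6.64, 7.40, 7.77 and 5.58 (-2.18 ± 0.20), while pyruvate carboxylase (Pcx) was higher by 1.59. Glycolysis had 7 of 25 lower and 3 higher, near the shares of all genes (26.4% and 14.5%), and its median of -0.50, close to the -0.42 of the median gene, turned to 0.10 with spike-in scaling. The lactate exporter Slc16a3 differed by 3.66 ± 0.20, Pfkfb4 by 2.74 and the glucose transporter Slc2a3 by 1.88, whereas Tpi1, Pfkl and Pfkm differed by -1.63, -1.57 and -1.54. In cholesterol synthesis, 8 of 22 were lower and 1 higher, and the median of -0.29 turned to 0.31 with spike-in scaling. Sqle, which makes squalene epoxide, differed by -1.43 ± 0.20 and Fdft1, which makes squalene, by 1.05 ± 0.21.

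**Figure D4:**
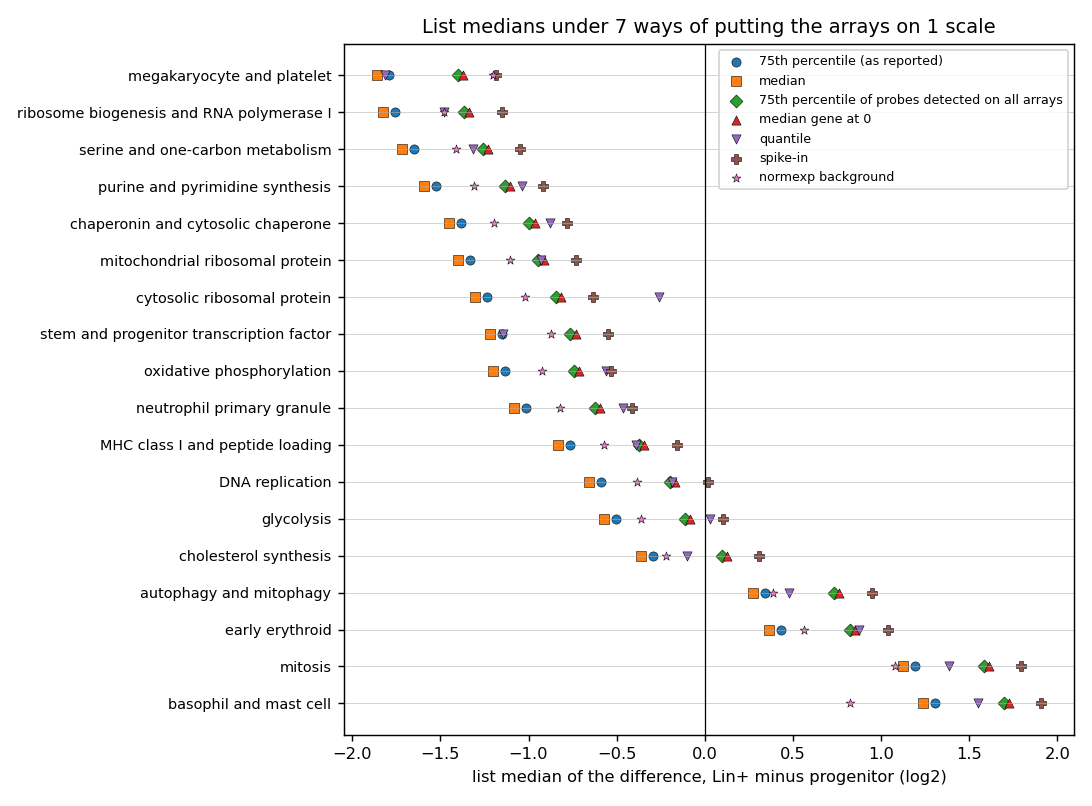
Median difference of 18 gene lists, Lin+ minus progenitor in log2 (x axis), under 7 ways of putting the 2 arrays on 1 scale, 1 symbol each. The medians of DNA replication, glycolysis and cholesterol synthesis cross 0 between scalings, and the other 15 keep their sign.

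MHC class II genes, which present antigen to helper T cells, were higher in 6 of 10 and lower in none, with a median of 2.29. H2-Aa had 0.42, -2.77, -1.47 and 4.20 in LT-HSC, ST-HSC, progenitors and Lin+ cells (5.67 ± 0.24), and the invariant chain Cd74 had 2.58, -0.76, 0.80 and 6.27 (5.47 ± 0.21). MHC class I and peptide loading had 5 of 17 lower and none higher at a median of -0.76, a share of lower genes near the 26.4% of all genes, so the count says nothing particular about the list. The count was 2 with the median gene at 0, and with quantile normalization or spike-in scaling 2 were higher and 1 lower. B2m, the light chain of class I, differed by -0.04, H2-D1 by 0.46, the loading chaperone Calr by -1.88 and the immunoproteasome subunits Psmb8 and Psmb10 by -1.35 and -1.42.

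Interferon-stimulated genes were higher in 14 of 28 and lower in none, with a median of 0.95. Rsad2 had 1.83, 1.33, -0.70 and 5.40 (6.09 ± 0.22), Isg15 had 4.86, 4.40, 3.68 and 6.91, and Irf7, a regulator of interferon production, had 0.93, 0.07, -0.76 and 2.11. Progenitors were the lowest fraction for these 3. Oas2 had 3.31, 2.51, -0.21 and 1.55, so that Lin+ cells were above progenitors (1.76) and below both stem cell fractions. Irf9, Stat2 and Ifi35 were within 2-fold.

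Several of the extremes belonged to no list. The largest measured difference was that of Unc93a2, not well above background in ST-HSC, with -2.23 in LT-HSC, a level of -2.25 in progenitors and one of 9.39 in Lin+ cells (11.64 ± 0.31, or 3201-fold). Zdhhc22, a palmitoyltransferase, was at -1.11 and 8.67 (9.78 ± 0.22). Each was read by 1 probe. The largest bound was that of Itgb2l, an integrin beta chain of neutrophils, at least 370-fold higher. Chil1, a chitinase-like protein, was at least 226-fold higher.

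On the other side, Mdga1 had 3.42, 3.42, 2.40 and -2.55 (-4.95 ± 0.25), Rbpms2 3.16, 1.14, 2.38 and -2.29, and Cavin1, a caveolar coat protein, 5.97, 3.95, 3.89 and -0.73. Muc13 had 7.43, 7.28, 6.09 and 1.87 (-4.22 ± 0.20), and Trim47, Mdfi and Pdgfrb differed by -4.36, -4.37 and -4.19. All 7 were lowest in Lin+ cells. Among genes not well above background in Lin+ cells, Kcnj5 was at least 26.6-fold lower than in progenitors, Hnf4a at least 15.2-fold and Dnah1 at least 17.2-fold. Dnah1 was well above background in progenitors alone.

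The difference moved with the length of the gene. Over 5 groups of genes ordered by their genomic span, the median difference went from -0.65 in the shortest (median span 3737 bases) to -0.09 in the longest (100796 bases). Progenitors minus LT-HSC, which shares the progenitor array, ran from 0.46 to -0.06 over the same groups, and Lin+ minus LT-HSC from -0.20 to -0.11. With the trend over span removed, 41 cytosolic ribosomal protein genes were lower in place of 76, and the genome-wide counts were 1760 higher and 3327 lower.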

How the data were processed

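From 10 ng of total RNA per fraction, Cy3-labelled target was made for 1 Agilent array, per the labels' protocols. The deposited intensity values were background-subtracted and detrended within each array by Agilent Feature Extraction 10.7.1.1, per the file headers, with no scaling between arrays. The authors' deposited value table holds a linear ratio of the same signal to 1 constant per array, equal within 1% for 55246 single-spot probes. Column medians were 0.0619, 0.0630, 0.0704 and 0.0738 (LT-HSC, ST-HSC, progenitor, Lin+).

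Intensities were put on the log2 scale minus each array's 75th percentile over non-control probes. A gene was represented by its probe brightest over the 4 arrays, with symbols from RefSeq accessions (48.1% of probes were named). Where a probe was not flagged as well above background on 1 array, that side was set to the dimmest level so flagged on the array, or to its own value if brighter. Agreement between probes was checked: 95.2% of 1193 called genes with several probes agreed in direction. Simulated data were used to check the script that makes the calls, not the differences themselves. Normexp (limma 3.58.1, offset 50) used the median foreground signal, because no mean signal column was at hand. Python 3.11.15, numpy 2.4.6 and pandas 2.3.3 were used. Genes named were sorting genes, fixed cell type markers, the 12 largest and 12 smallest measured differences, the 8 largest bounds each way, up to 8 called members of each list, called members against their list's median, and members within 2-fold as examples. Genes and 54 lists were chosen with earlier results of these data known, and 6 lists are not described.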

Additional observations from a re-analysis of the deposited data

Results flagged for a closer look

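A signal appeared in probes that enter none of the comparisons. Of 16193 probes whose names give a chromosome interval in place of a gene, 26.6% were well above background in Lin+ cells and 21.9% in progenitors. The same flag was set for 1.30% and 1.62% of 308 negative control spots. Of the 4761 interval probes well above background on at least 1 array, 518 (10.9%) were at least 2-fold higher in Lin+ cells and 942 (19.8%) lower, beside 14.3% and 25.5% of the named probes. The genes read by these probes were not analysed here.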

How the results depend on the processing

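No paired analysis was possible because every sample is labelled replicate 1, so the groups share fewer than 2 replicate numbers, and with 1 array per fraction no replicate could be left out. No named gene past 2-fold turned direction under any scaling, background, filter, probe-summary, value-table or span setting tried. Median, detected-probe, median-gene and spike-in scaling each shift all genes by the same amount, smaller than 2-fold, so they could not turn such a gene. Of 222 named genes past 2-fold, 190 stayed so with spike-in scaling, 199 with quantile normalization and 201 with the median gene at 0. The filter for genes measured on both arrays kept 183 of them, with unchanged values. With the percentile over detected probes, 1912 genes were lower, the median was -0.0295, and 1 DNA replication and 17 cytosolic ribosomal protein genes were lower. With the median gene at 0 (0.0), these were 1833, 1 and 15. With quantile normalization the median was -0.20, and 0 primary granule, 1 MHC class I and 2 cytosolic ribosomal protein genes were lower. With spike-in scaling 3331 genes were higher and 1357 lower at a median of 0.18, and 1 primary granule, 1 MHC class I, 0 DNA replication, 27 ribosome biogenesis, 1 cholesterol synthesis and 5 cytosolic ribosomal protein genes were lower. In the primary granule, MHC class I, DNA replication and cholesterol lists, more genes were then higher than lower. With normexp 2073 genes, 11 stem and progenitor transcription factors and 50 cytosolic ribosomal protein genes were lower. With genes measured on both arrays only, 7 pro-B and pre-B genes were higher, since bounds were left out. With the span trend removed, 41 cytosolic ribosomal protein genes were lower. At 4-fold, 803 genes were higher and 775 lower. Then 2 basophil and mast cell and 10 mitosis genes were higher, and 0 primary granule, 7 stem and progenitor transcription factor, 21 ribosome biogenesis, 1 glycolysis and 1 cytosolic ribosomal protein genes lower. The cause of the shifts between scalings was not tested. Signal over background limited 1554 genes to bounds and left 289 unresolved.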
